A study of Mus musculus with 4 samples.

Results

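The RNA of 10 genes of major histocompatibility complex (MHC) class II antigen presentation and costimulation was followed in inflamed mouse colon, in intestinal Elf4 knockouts and in wild type mice. The genes were chosen by name and found by Ensembl identifier: the class II chains H2-Aa, H2-Ab1 and H2-Eb1, the invariant chain Cd74, the peptide loading genes H2-DMa and H2-DMb1, the protease Ctss, the transactivator Ciita, and the costimulatory ligands Cd80 and Cd86. All 10 were among the 22422 genes of the deposited table and all 10 passed the filter on low values. Female mice, 6 weeks old, drank 2% dextran sulfate sodium (DSS), a polysaccharide that injures the colonic epithelium, for 5 days, and RNA of the distal colon was sequenced. The Elf4fl/fl-Villin-Cre mice carry loxP-flanked Elf4 alleles and a Cre recombinase under the villin promoter, which is active in intestinal epithelium and not in the immune cells of the same tissue. The wild type mice received the same DSS, and the alleles that they carried are not given in the labels. Each genotype had 2 libraries. The design gives strain C57BL/6 for all mice, whereas C57BL/8 is written as strain for the knockout samples. The labels do not say whether the 2 libraries of a genotype came from separate animals, so p-values measure the spread between libraries, which may be technical. Colon of mice without DSS was not analysed here.

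MHC class II molecules are pairs of an alpha and a beta chain that hold peptides from endocytosed protein and show them to CD4+ T cells. The invariant chain, the product of Cd74, fills the groove of a new pair until proteases such as cathepsin S cut it down, and H2-DM then exchanges the remaining fragment for an antigenic peptide. Dendritic cells, macrophages and B cells make class II all the time, and epithelial cells of inflamed gut can make it when interferon gamma switches on CIITA, which binds no DNA itself but is recruited to class II promoters by factors on the X and Y boxes. CD80 and CD86 belong to the B7 family, sit on activated antigen-presenting cells and give T cells a second signal through CD28 or an inhibitory one through CTLA4.

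The libraries had similar depth, and Elf4 RNA was lower in the knockout colon. Whole reads recovered from the normalised values came to 16023926 and 16425954 in Elf4fl/fl-Villin-Cre libraries, against 16134509 and 15885028 in wild type libraries. Elf4 stood at 897 and 758 normalised reads in Elf4fl/fl-Villin-Cre colon, against 1588 and 1938 in wild type colon, and fell by 1.09 ± 0.16 on the log2 scale (SE; limma adjusted p = 0.0139). The count covers the whole gene and does not show which exons were read. The tissue label was checked against epithelial markers: 10 of 10 were present in all 4 libraries, and the summed level of the 10 was 81548 and 97528 normalised reads in Elf4fl/fl-Villin-Cre colon, against 246138 and 305794 in wild type colon. In whole tissue, fewer cells of a type and less RNA per cell cannot be told apart.

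The promoters of the class II genes show what CIITA and its partners act on, and 5 stretches are printed because they set class II genes beside Cd80, whose RNA differed between the genotypes. They come from RefSeq on build GRCm38.p6 and run from 135 to 16 bases before the annotated start, 5′ to 3′ on the gene's own strand. Capitals mark an X-box core (AACNGATG), the palindrome of the cyclic AMP response element (TGACGTCA) or a Y box (TGATTGG). Their letters were chosen after these promoters had been read. No base of the 5 stretches lies in an annotated exon, and the RefSeq start of Cd80 lies inside the longer gene model that the GENCODE annotation gives.
H2-Aa, chr17:34287839-34287958, minus strand: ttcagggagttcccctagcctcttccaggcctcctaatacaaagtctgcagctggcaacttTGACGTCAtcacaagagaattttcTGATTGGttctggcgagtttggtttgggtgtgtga
H2-Eb1, chr17:34305732-34305851, plus strand: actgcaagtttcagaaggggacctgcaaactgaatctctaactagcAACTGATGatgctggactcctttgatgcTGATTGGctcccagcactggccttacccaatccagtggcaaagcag
H2-Eb2, chr17:34325540-34325659, plus strand: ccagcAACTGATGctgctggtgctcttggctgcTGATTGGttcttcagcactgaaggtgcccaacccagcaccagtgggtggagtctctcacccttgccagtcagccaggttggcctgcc
H2-DMb2, chr17:34145114-34145233, plus strand: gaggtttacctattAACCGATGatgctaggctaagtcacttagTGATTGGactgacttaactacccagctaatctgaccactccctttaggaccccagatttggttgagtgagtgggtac
Cd80, chr16:38458798-38458917, plus strand: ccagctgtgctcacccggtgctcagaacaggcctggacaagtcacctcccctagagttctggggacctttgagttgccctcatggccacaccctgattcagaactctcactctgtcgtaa

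In H2-Eb1 and H2-Eb2 an X-box core was followed by a Y box after a gap of 20 bases, and in H2-DMb2 after 21 bases. H2-DMb1, whose stretch is not printed because it overlaps annotated exons, had the same gap of 21 bases as H2-DMb2. In H2-Aa the first motif was the response element palindrome, 16 bases before the Y box. No motif of the 3 lay in the Cd80 window of 300 bases or in the windows of H2-DMa, and Ctss had an X-box core 207 to 200 bases before its start with no Y box. The windows of H2-DMa, like that of Cd80, lie inside the longer GENCODE gene model. Other starts of these genes were not searched, so the absence of motifs holds for these windows only. Searched on both strands of 32851 promoter windows of 300 bases, the X-box core was in 2.32%, the palindrome in 1.79% and the Y box in 7.82%. An X-box core or palindrome followed within 30 bases on the sense strand by a Y box was in 13 windows (0.04%). Of these, 5 belonged to class II genes, 3 of them to the 10 genes described here. Because the letters were chosen after the printed promoters had been read, this count is no test of enrichment. Promoter windows were matched for 6 of the 10 genes (H2-Aa, H2-Eb1, H2-DMa, H2-DMb1, Ctss and Cd80). H2-Ab1, Cd74, Ciita and Cd86 were not matched. The match of letters describes these windows and says nothing of what was bound in these mice.

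Only the costimulatory ligands of the 10 genes passed the test between genotypes. Cd80 and Cd86 rose in Elf4fl/fl-Villin-Cre colon, and the 8 genes of the class II pathway itself were not called in either direction. Fold changes are given with wild type as the denominator, as differences of log2(value + 1), where the added 1 shrinks those of weakly expressed genes, and a gene was called at a limma adjusted p under 0.05, adjusted over all 22050 genes tested. So 2 of 10 were higher, where 6.86% of all genes were, and 0 of 10 were lower, where 8.60% of all genes were. Tests by edgeR and DESeq2 on the recovered reads gave the same 2 higher and 0 lower (edgeR called 9.88% of all its genes higher and 13.5% lower), and no further gene of the 10 had an unadjusted limma p under 0.05, a level that 32.1% of all genes passed (7082 of 22050). The median log2 fold change of the 10 was 0.09, beside 0.11 over all genes tested.

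**Figure D1:**
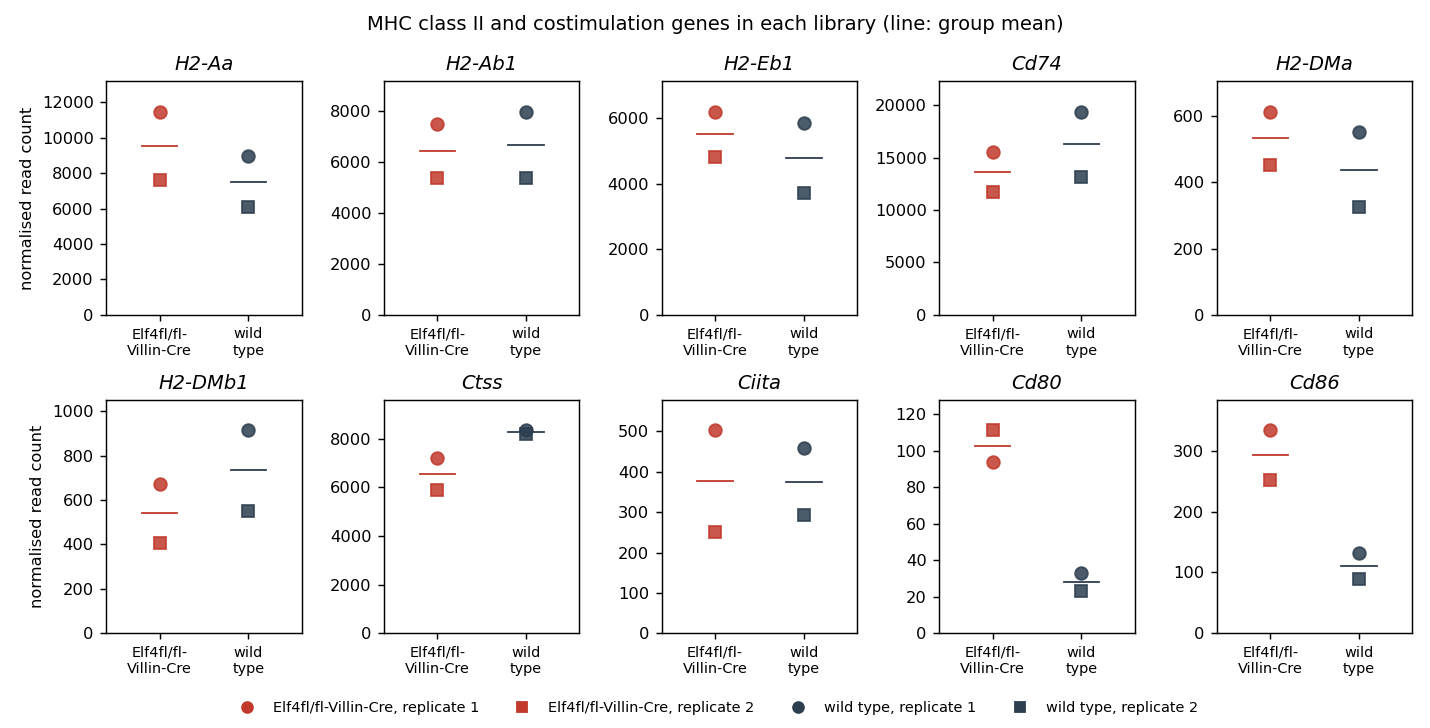
Normalised read count of each of the 10 genes (vertical axis, from 0, a scale of its own in each panel) in Elf4fl/fl-Villin-Cre libraries on the left and the wild type libraries on the right. Circles are replicate 1, squares are replicate 2 and lines are group means. The groups are apart upward for Cd80 and Cd86 and downward for Ctss, and overlap for the other 7 genes.

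The classical class II chains were abundant in both genotypes, and their libraries overlapped. H2-Aa (ENSMUSG00000036594.14, chromosome 17, 34282744 to 34287823 in mm10, minus strand), the alpha chain of the I-A molecule, had 11485 and 7635 normalised reads in Elf4fl/fl-Villin-Cre colon, against 8968 and 6076 in wild type colon. H2-Ab1, its beta chain, had 7466 and 5375 in Elf4fl/fl-Villin-Cre colon, against 7966 and 5369 in wild type colon. H2-Eb1, the beta chain of the I-E molecule, had 6211 and 4816 in Elf4fl/fl-Villin-Cre colon, against 5873 and 3738 in wild type colon. In each of the 3 genes the libraries of a genotype lay farther apart than the means of the genotypes. The log2 fold change was 0.34 for H2-Aa (95% interval -0.33 to 1.01), -0.05 for H2-Ab1 (-0.66 to 0.57) and 0.22 for H2-Eb1 (-0.39 to 0.84), with limma adjusted p of 0.435, 0.921 and 0.586. A fold of 2 in either direction lies outside the intervals of H2-Ab1 and H2-Eb1, and inside that of H2-Aa on the upward side. H2-Ea, the alpha chain of I-E, was not analysed here.

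Cd74, the chaperone of new class II pairs, was the most abundant of the 10 genes per kilobase of exon in every library. It had 15553 and 11722 normalised reads in Elf4fl/fl-Villin-Cre colon, against 19408 and 13117 in wild type colon, so that the ranges overlapped. Its log2 fold change was -0.24 ± 0.26 (SE; limma adjusted p = 0.565), with a 95% interval of -0.87 to 0.39. The sign of the Cd74 and H2-Ab1 values turned positive when libraries were scaled to equal totals (0.08 and 0.27), a scaling that moved the median over all genes by 0.30.

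The genes that load and trim class II were not called either. H2-DMa, the alpha chain of the peptide exchange factor, had 613 and 452 normalised reads in Elf4fl/fl-Villin-Cre colon, against 550.4 and 325 in wild type colon (log2 fold change 0.32 ± 0.28 SE; limma adjusted p = 0.491). H2-DMb1, a beta chain of the same factor, had 673 and 406 in Elf4fl/fl-Villin-Cre colon, against 915 and 552 in wild type colon (log2 fold change -0.44 ± 0.32; limma adjusted p = 0.392). The ranges of both genes overlapped. H2-DMb1 shares 369 of its 1629 stretches of 50 bases (22.65%) with its neighbour H2-DMb2, so the split of reads between them is uncertain. H2-DMb2 had 259.8 and 197 in Elf4fl/fl-Villin-Cre colon, against 186 and 81.1 in wild type colon, and the sum of the 2 genes gave a log2 fold change of -0.15. Exons of H2-DMa overlap those of Brd2 on the opposite strand over 360 bases, 10.4% of its exon length, and those of Ciita overlap Dexi over 329 bases (3.5%). Reads of such overlaps cannot be told apart where the counting ignores strand, which the sources used here do not give.

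Ctss, the cysteine protease cathepsin S that trims the invariant chain in antigen-presenting cells, was the only gene of the 8 class II genes whose genotypes did not overlap. It had 7188 and 5903 normalised reads in Elf4fl/fl-Villin-Cre colon, against 8354 and 8178 in wild type colon. Both Elf4fl/fl-Villin-Cre libraries lay below both wild type libraries, and the gap was not past the threshold (log2 fold change -0.34 ± 0.16 SE, 95% interval -0.74 to 0.05; limma adjusted p = 0.206). Quantile scaling took the value to 0.03. Groups that do not overlap were common, at 27.2% of all genes downward, 35.0% upward and 62.2% in either direction.

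Ciita, the regulator of the class II genes, had 503 and 250 normalised reads in Elf4fl/fl-Villin-Cre colon, against 459 and 292 in wild type colon. The means were 377 ± 179 and 375 ± 118 (SD, n = 2 each). The wild type libraries lay inside the range of the Elf4fl/fl-Villin-Cre libraries. The log2 fold change of -0.04 had a 95% interval of -0.95 to 0.86 (limma adjusted p = 0.948), so a rise or a fall of Ciita within these bounds remains compatible with the values.

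Cd80 and Cd86 were higher in Elf4fl/fl-Villin-Cre colon. Cd80 (ENSMUSG00000075122.4, chromosome 16, 38455561 to 38496335 in mm10, plus strand) had 93.7 and 111 normalised reads in Elf4fl/fl-Villin-Cre colon, against 32.9 and 23.2 in wild type colon. Cd86 (ENSMUSG00000022901.13, chromosome 16, 36603869 to 36666081, minus strand) had 334 and 252 in Elf4fl/fl-Villin-Cre colon, against 132 and 89.6 in wild type colon. For both genes the lower Elf4fl/fl-Villin-Cre library was above the higher wild type library. The mean of Cd80 was 102 ± 12.4 in Elf4fl/fl-Villin-Cre colon and 28.1 ± 6.89 in wild type colon (SD, n = 2 each), a ratio of 3.65. The mean of Cd86 was 293 ± 58.1 in Elf4fl/fl-Villin-Cre colon and 111 ± 29.8 in wild type colon (SD, n = 2 each), a ratio of 2.65. Cd80 rose by 1.85 ± 0.30 on the log2 scale (SE, 95% interval 1.11 to 2.58; limma adjusted p = 0.0165, edgeR adjusted p = 0.0112). Cd86 rose by 1.41 ± 0.26 (95% interval 0.78 to 2.04; limma adjusted p = 0.0212, edgeR adjusted p = 0.0167).

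The depth behind Cd80 was low. It rested on 115 and 133 reads in Elf4fl/fl-Villin-Cre libraries, against 32 and 22 reads in wild type libraries, and Cd86 on 410 and 301 reads in Elf4fl/fl-Villin-Cre libraries, against 128 and 85 reads in wild type libraries. The calls also depended on 1 library. Without wild type replicate 2 the edgeR adjusted p was 0.0596 for Cd80 and 0.0719 for Cd86, while the other 3 edgeR fits with 1 library left out called both. Limma with 1 library left out called no gene of the whole table, so its p-values say nothing of these 2 genes, and the log2 fold changes were then 1.603 to 2.09 for Cd80 and 1.13 to 1.68 for Cd86.

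**Figure D2:**
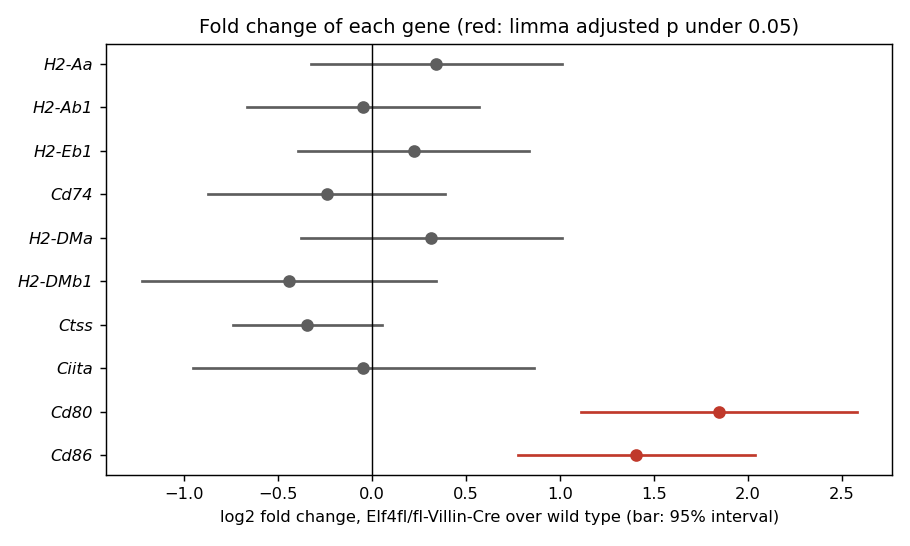
Log2 fold change of each gene, Elf4fl/fl-Villin-Cre over wild type (horizontal axis), with its 95% interval from limma. The intervals of Cd80 and Cd86, in red, lie above 0, and those of the 8 class II genes, in grey, include 0.

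Per kilobase of exon, the level of the 10 genes spanned a wide range, and the order changed little between genotypes. In Elf4fl/fl-Villin-Cre colon the mean normalised reads per kilobase were 8122 for Cd74, 4820 for Ctss, 2836 for H2-Eb1, 2517 for H2-Aa, 2500 for H2-Ab1, 321 for H2-DMb1, 154 for H2-DMa, 80.0 for Cd86, 39.5 for Ciita and 27.7 for Cd80. In wild type colon they were 9686 for Cd74, 6087 for Ctss, 2596 for H2-Ab1, 2472 for H2-Eb1, 1980 for H2-Aa, 436 for H2-DMb1, 127 for H2-DMa, 39.4 for Ciita, 30.2 for Cd86 and 7.58 for Cd80. The library ranges of the 3 chains overlapped in both genotypes. Within libraries, H2-Eb1 was above H2-Aa in all 4, first of the 3 in both Elf4fl/fl-Villin-Cre libraries (3195 and 2477 per kilobase), and second to H2-Ab1 in both wild type libraries (3021 and 1923 against 3102 and 2091). In Elf4fl/fl-Villin-Cre colon both libraries of Cd86 (68.7 and 91.2 per kilobase) were above both of Ciita (26.2 and 52.8), while in wild type colon Cd86 (24.5 and 36.0) and Ciita (30.6 and 48.1) overlapped. Cd80 overlapped Ciita in Elf4fl/fl-Villin-Cre colon, at 25.3 and 30.03 per kilobase, and lay below it in wild type colon, at 8.89 and 6.26.

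The amount of costimulatory ligand RNA per class II RNA was higher in Elf4fl/fl-Villin-Cre colon. The summed reads of Cd80 and Cd86 came to 1.70% and 2.04% of the summed reads of H2-Aa, H2-Ab1 and H2-Eb1 in Elf4fl/fl-Villin-Cre libraries, against 0.722% and 0.743% in wild type libraries. The groups did not overlap, and the ratio was 2.54 times as high in Elf4fl/fl-Villin-Cre colon (1.34 on the log2 scale). A ratio within a library does not depend on a scaling by 1 factor per library, and its absolute size depends on gene length. Quantile scaling acts on each level separately, and under it the log2 fold changes were 1.62 for Cd80 and 1.27 for Cd86, beside 0.72 for H2-Aa, 0.32 for H2-Ab1 and 0.56 for H2-Eb1, so the ligands stood less far above the chains. With 2 libraries against 2, an exact two-sided permutation test cannot give a p below 0.333, so these ratios are descriptions.

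Set beside summed markers of the cells that can make these proteins, the ligands and the class II chains went opposite ways. Relative to the summed reads of 14 macrophage and monocyte markers, Cd80 and Cd86 made up 2.02% and 2.01% in Elf4fl/fl-Villin-Cre libraries, against 1.24% and 1.09% in wild type libraries, a ratio added after seeing the data. The class II chains made up 119% and 98.7% of the same marker sum in Elf4fl/fl-Villin-Cre libraries, against 171% and 147% in wild type libraries. Neither ratio overlapped between genotypes, with 1.73 times as much ligand RNA and 0.682 times as much class II RNA per summed marker RNA in Elf4fl/fl-Villin-Cre colon. The sum weighs each marker by its level, and the log2 fold changes of the 14 markers ran from -0.37 to 2.06. Those of Cd80 and Cd86 were 1.85 and 1.41, so the ligand ratio depends on which markers are summed. Over 12 dendritic cell markers the log2 differences were 0.73 for the ligands and -0.62 for the chains. Over 12 B cell markers they were 0.55 and -0.80, and there the ligand ratio overlapped, at 10.99% and 18.1% in Elf4fl/fl-Villin-Cre libraries, against 7.99% and 11.6% in wild type libraries.

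**Figure D3:**
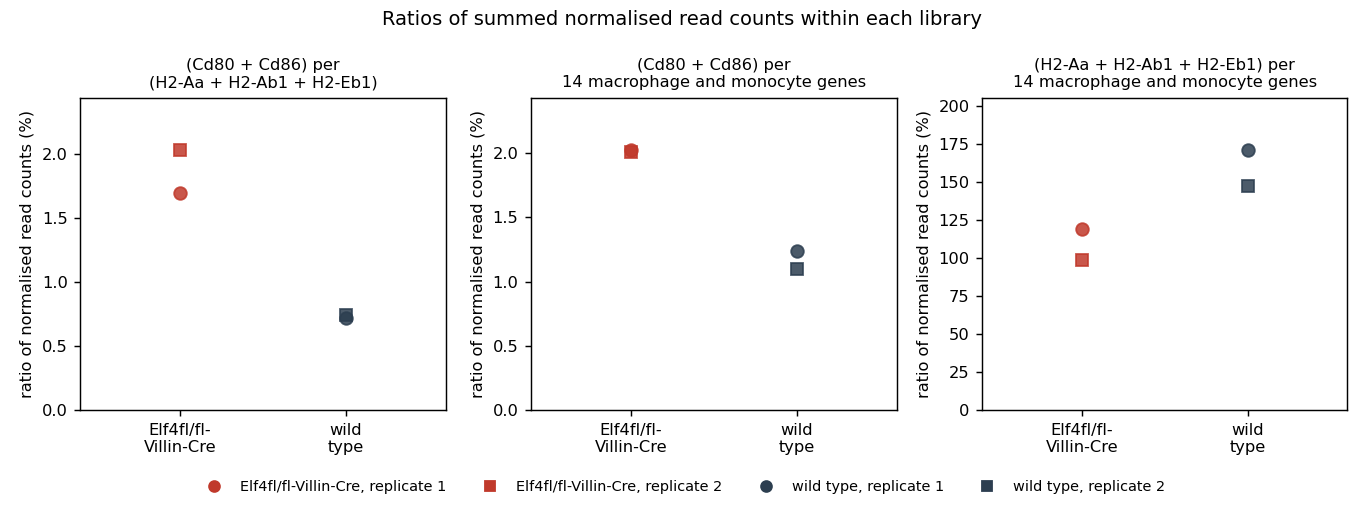
Ratios of summed normalised reads within each library, in percent (vertical axes, from 0), for the Elf4fl/fl-Villin-Cre libraries on the left of each panel and the wild type libraries on the right. Ligand RNA per class II chain RNA and per macrophage marker RNA is higher in both Elf4fl/fl-Villin-Cre libraries, and class II chain RNA per macrophage marker RNA is lower in both.

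The markers themselves moved between genotypes. Of 14 macrophage and monocyte markers, 9 were higher and 0 lower by limma, where 6.86% of all genes were higher and 8.60% lower. By edgeR 10 were higher and 0 lower, where 9.88% and 13.5% of all genes were. The median log2 fold change was 0.80, beside 0.11 over all genes tested. The number higher was 5 by limma with no filter on low values. It was also smaller by edgeR without Elf4fl/fl-Villin-Cre replicate 1 or without wild type replicate 2. Both of these fits called fewer genes over the whole table as well. At an unadjusted limma p under 0.05 there were 11 of 14, beside 32.1% of all genes. Their summed level was 21114 and 18065 normalised reads in Elf4fl/fl-Villin-Cre colon, against 13313 and 10299 in wild type colon, and no marker of the list was at 0. F13a1, a transglutaminase of monocytes, had 738 and 683 in Elf4fl/fl-Villin-Cre colon, against 176 and 162 in wild type colon (log2 fold change 2.06; limma adjusted p = 0.00636). Ccr2, the chemokine receptor that brings monocytes out of the marrow, had 856 and 487 in Elf4fl/fl-Villin-Cre colon, against 229 and 173 in wild type colon (1.69; limma adjusted p = 0.019). Cd14, a coreceptor for lipopolysaccharide, and Cd68, a lysosomal glycoprotein of macrophages, rose by 1.37 and 0.94 (limma adjusted p = 0.0089 and 0.0251). The part of these cells in the Cd80 and Cd86 difference was not tested.

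Dendritic cell markers mostly lay above 0, with calls in both directions. Of 12, 3 were higher, where 6.86% of all genes were, and 1 was lower, where 8.60% were. The log2 fold change was positive in 10 of 12, with a median of 0.66. At an unadjusted limma p under 0.05 there were 5 of 12, beside 32.1% of all genes. Their summed level was 2534 and 2305 in Elf4fl/fl-Villin-Cre colon, against 1659 and 1157 in wild type colon. Ccr7, which guides mature dendritic cells to lymph nodes, had 364 and 274 in Elf4fl/fl-Villin-Cre colon, against 150.2 and 59.0 in wild type colon (log2 fold change 1.73; limma adjusted p = 0.0473). Fscn1, an actin bundling protein of mature dendritic cells, rose by 1.36 and Zbtb46, a transcription factor of classical dendritic cells, by 0.96 (limma adjusted p = 0.0243 and 0.0371). Under quantile scaling the calls of Ccr7 and Zbtb46 were lost (adjusted p = 0.0728 and 0.0796), and that of Ccr7 also with TMM scaling (0.0502). By edgeR without wild type replicate 2 fewer of the 12 were called in each direction, as over the whole table. Itgae, the integrin CD103 of intestinal dendritic cells and of intraepithelial T cells, had 90.4 and 63.5 in Elf4fl/fl-Villin-Cre colon, against 207 and 166 in wild type colon, and fell by 1.28 (limma adjusted p = 0.0259). Siglech, a marker of plasmacytoid dendritic cells, was at or near 0 throughout, with 3.26 and 0.836 in Elf4fl/fl-Villin-Cre colon, against 0 and 1.05 in wild type colon. The part of dendritic cells in the Cd80 and Cd86 difference was not tested.

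B and T cell markers had few calls by limma and edgeR. Of 12 B cell markers 1 was higher and 0 lower by limma and by edgeR, near the 6.86% of all genes that limma called higher. DESeq2 called 4 higher and 0 lower, where it called 1590 of 17184 genes higher. At an unadjusted limma p under 0.05 there were 3 of 12, beside 32.1% of all genes. All 12 log2 fold changes were positive and their median was 1.001. By edgeR the number higher grew without Elf4fl/fl-Villin-Cre replicate 2, though not over the whole table. It shrank without the other library of that genotype and without wild type replicate 2. Both of these fits called fewer genes over the whole table as well. The summed level of the B cell markers was 3890.4 and 2009 in Elf4fl/fl-Villin-Cre colon, against 2059.8 and 969 in wild type colon, so the genotypes overlapped. Bank1, a scaffold of B cell receptor signalling, was the gene called by limma, with 139 and 92.8 in Elf4fl/fl-Villin-Cre colon, against 51.4 and 36.9 in wild type colon (log2 fold change 1.36; limma adjusted p = 0.0378, and 0.0749 under quantile scaling). Of 12 T cell markers 1 was higher and 0 lower (1 and 0 by edgeR), and 3 of 12 had an unadjusted limma p under 0.05, again near the shares over all genes. The edgeR call was lost without wild type replicate 2, a fit with fewer calls over the whole table. The median of the T cell markers was 0.58, and their sum was 1878 and 1472 in Elf4fl/fl-Villin-Cre colon, against 1640.0 and 987 in wild type colon. Il2ra, the inducible chain of the interleukin 2 receptor, rose by 1.91 (limma adjusted p = 0.0247). No B or T cell marker of these lists was at 0.

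Epithelial and neutrophil markers changed more widely, beside 6.86% of all genes higher and 8.60% lower. Of 10 epithelial markers 10 fell and 0 rose (edgeR: 10 and 0), with a median of -1.38, and Vil1, the gene whose promoter drives the Cre, had 5612 and 5973 in Elf4fl/fl-Villin-Cre colon, against 15717 and 19054 in wild type colon (log2 fold change -1.58; limma adjusted p = 0.00942). The class II chains, in the same libraries, had no fold change of that size. Of 10 neutrophil markers 9 rose and 0 fell (edgeR: 9 and 0, DESeq2: 9 and 1), with a median of 2.80. Clec4d and Csf3r, a lectin receptor and the receptor of granulocyte growth factor, rose by 3.36 and 2.15 (limma adjusted p = 0.00737 for each). The summed level of the list was 16289 and 17507 in Elf4fl/fl-Villin-Cre colon, against 13889 and 14216 in wild type colon. Most of it came from Ly6g, the marker that limma did not call and that was lower in both Elf4fl/fl-Villin-Cre libraries. Ly6g had 9105 and 10787 in Elf4fl/fl-Villin-Cre colon, against 12663 and 13520.2 in wild type colon, so the sum does not follow the other markers. The part of the lower epithelial marker RNA or the higher neutrophil marker RNA in the values of the 10 genes was not tested.

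**Figure D4:**
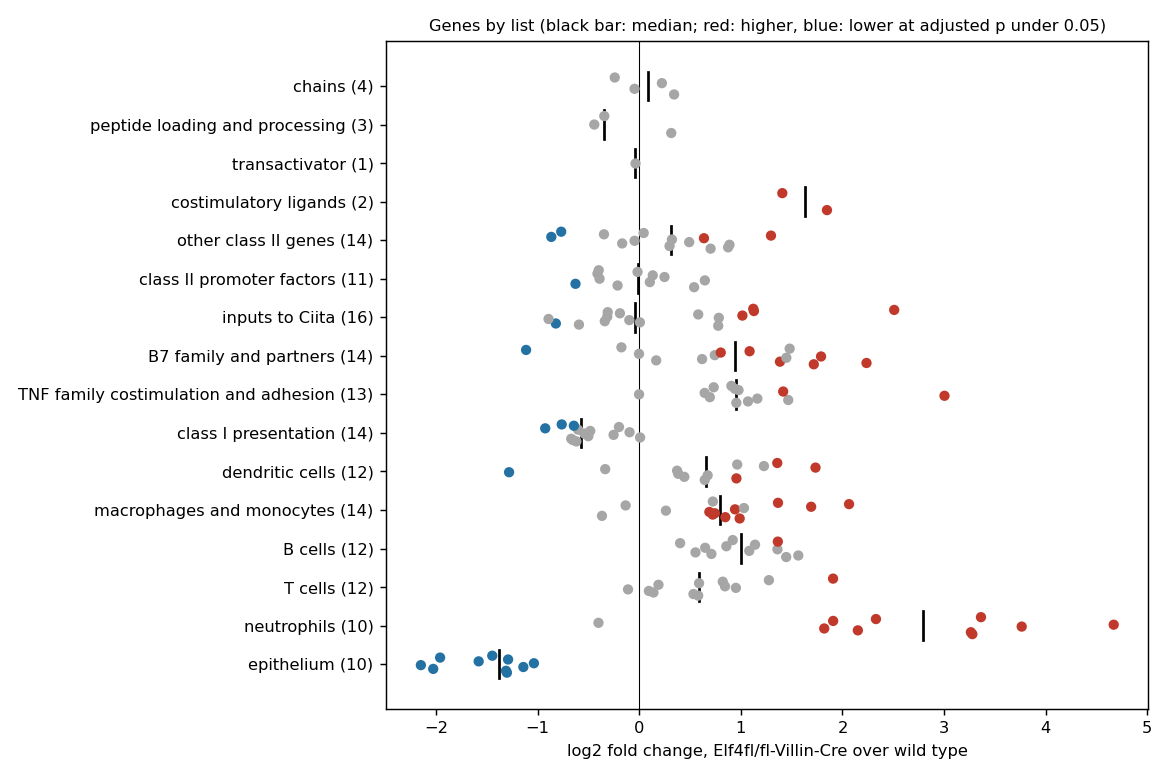
Log2 fold change, Elf4fl/fl-Villin-Cre over wild type (horizontal axis), of every tested gene of each list, with the number of genes in brackets and a black bar at the median. Red and blue points were higher and lower at a limma adjusted p under 0.05. The class II chains and the promoter factors lie around 0, the B7 family and partners and the macrophage markers mostly above 0, and the 10 epithelial markers below 0.

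Other genes of the class II pathway were called in both directions. Of 16 listed, 14 were tested, and 2 rose and 2 fell, where 6.86% of all genes rose and 8.60% fell. At an unadjusted limma p under 0.05 there were 8 of 14, beside 32.1% of all genes. The median log2 fold change was 0.31. March1, an E3 ubiquitin ligase that takes class II and CD86 proteins off the cell surface, had 296 and 191 normalised reads in Elf4fl/fl-Villin-Cre colon, against 106 and 87.5 in wild type colon (log2 fold change 1.30 ± 0.26 SE; limma adjusted p = 0.0269). Ctsl, cathepsin L, a protease that trims the invariant chain in other cells such as thymic epithelium, had 5648 and 5160.5 in Elf4fl/fl-Villin-Cre colon, against 3608 and 3339 in wild type colon (0.64; limma adjusted p = 0.0316). Sppl2a, the intramembrane protease that removes the last stub of the invariant chain, had 5303 and 5459 in Elf4fl/fl-Villin-Cre colon, against 9822 and 9776 in wild type colon (-0.86; limma adjusted p = 0.0164). Cd82, a tetraspanin of the compartments where class II is loaded, fell by 0.77 (limma adjusted p = 0.0259), a call that was lost with libraries scaled to equal totals (adjusted p = 0.0642). Under quantile scaling the calls of Cd82, Sppl2a and March1 were lost (adjusted p = 0.102, 0.0703 and 0.0556), and the log2 fold change of Sppl2a was -0.48. Other genes of the list were called instead, so that it had 3 higher and 0 lower. With equal totals it had 4 higher and 1 lower, and by DESeq2 3 higher and 2 lower. Without wild type replicate 2 edgeR lost calls in both directions in this list, and over the whole table as well.

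The accessory class II chains were named here for completeness after their values had been seen. They were not called by limma on the values as deposited or by edgeR, with genotype as the only term. H2-Ob, the beta chain of H2-O, which restrains H2-DM mainly in B cells, had 336 and 225 normalised reads in Elf4fl/fl-Villin-Cre colon, against 197 and 112 in wild type colon (log2 fold change 0.89; limma adjusted p = 0.125). Its partner H2-Oa had 108 and 90.3 in Elf4fl/fl-Villin-Cre colon, against 114 and 55.8 in wild type colon (0.30; limma adjusted p = 0.621). H2-Eb2, a second I-E beta chain gene, had 112 and 60.2 in Elf4fl/fl-Villin-Cre colon, against 65.8 and 37.9 in wild type colon (0.70; limma adjusted p = 0.297), and H2-DMb2 had a log2 fold change of 0.87 ± 0.40 (SE; limma adjusted p = 0.193). Of these, H2-Ob and H2-DMb2 had both Elf4fl/fl-Villin-Cre libraries above both wild type libraries, as did 35.0% of all genes.

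The factors that bind class II promoters, or work with CIITA there, were mostly not called. Of 11, 0 rose and 1 fell by limma, near the 8.60% of all genes that were lower. By edgeR 1 was higher and 2 lower, and by DESeq2 0 were higher and 3 lower. At an unadjusted limma p under 0.05 there were 6 of 11, beside 32.1% of all genes. The downward edgeR calls were lost with any 1 library left out. Each of these fits also called fewer genes lower over the whole table. The median was -0.02. Rfxank, a subunit of the regulatory factor X complex that sits on the X box, had 238 and 248 normalised reads in Elf4fl/fl-Villin-Cre colon, against 364 and 388 in wild type colon, and fell by 0.63 ± 0.15 (SE; limma adjusted p = 0.0397). With libraries scaled to equal totals the fall of Rfxank was 0.31 and no longer called (adjusted p = 0.168).

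Of 16 genes that act upstream of Ciita, 4 rose and 1 fell, where 6.86% of all genes rose and 8.60% fell. At an unadjusted limma p under 0.05 there were 9 of 16, beside 32.1% of all genes. The median log2 fold change was -0.05. Il10, an anti-inflammatory cytokine that lowers class II and B7 on macrophages, had 91.2 and 77.8 normalised reads in Elf4fl/fl-Villin-Cre colon, against 15.4 and 12.6 in wild type colon (log2 fold change 2.51 ± 0.32 SE; limma adjusted p = 0.0106). Tgfb1, a cytokine that also lowers class II, had 1033 and 895 in Elf4fl/fl-Villin-Cre colon, against 506 and 385 in wild type colon (1.12; limma adjusted p = 0.016). Prdm1, a repressor of Ciita in plasma cells, rose by 1.13 (limma adjusted p = 0.0243). Spi1, the macrophage and B cell transcription factor PU.1, rose by 1.02 (limma adjusted p = 0.0302). Ifngr2, a chain of the interferon gamma receptor, had 1589 and 2077 in Elf4fl/fl-Villin-Cre colon, against 2964 and 3473 in wild type colon, and fell by 0.82 (limma adjusted p = 0.0315), a call lost with equal library totals (adjusted p = 0.0688) and under quantile scaling (0.108). By edgeR without wild type replicate 2 the list had fewer genes called in each direction, as had the whole table. Ifng itself rested on few reads, at 24.4 and 0.836 in Elf4fl/fl-Villin-Cre colon, against 4.12 and 2.11 in wild type colon. A single Elf4fl/fl-Villin-Cre library held most of its reads, and it was not called (limma adjusted p = 0.708).

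Cd28 and Ctla4, the receptors that CD80 and CD86 engage, rose as well. Of 14 listed genes of the B7 family and its partners, 6 rose and 1 fell, where 6.86% of all genes rose and 8.60% fell. At an unadjusted limma p under 0.05 there were 10 of 14, beside 32.1% of all genes. The median log2 fold change was 0.94, beside 0.11 over all genes tested. Cd28, the activating receptor of both ligands on T cells, had 134 and 81.9 normalised reads in Elf4fl/fl-Villin-Cre colon, against 31.9 and 30.6 in wild type colon (log2 fold change 1.72 ± 0.32 SE; limma adjusted p = 0.0223). Ctla4, the inhibitory receptor that binds the same ligands and is abundant on regulatory T cells, had 263 and 173 in Elf4fl/fl-Villin-Cre colon, against 66.9 and 29.5 in wild type colon (2.24 ± 0.43; limma adjusted p = 0.023). The genotypes did not overlap for either receptor. Icos, an inducible costimulatory receptor of activated T cells, rose by 1.38, and Pdcd1, the inhibitory receptor PD-1, by 1.79 (limma adjusted p = 0.0166 and 0.0217). Lgals9, a galectin that binds TIM-3, was the gene that fell, at 2659.8 and 3009 in Elf4fl/fl-Villin-Cre colon, against 7591 and 4935 in wild type colon (-1.11; limma adjusted p = 0.0267, and 0.102 under quantile scaling). By edgeR without Elf4fl/fl-Villin-Cre replicate 1 or wild type replicate 2, fewer genes were called higher in the list and over the whole table. These receptors are T cell genes. Among the 12 T cell markers given above, 11 had a positive log2 fold change, with a median of 0.58, and their sum overlapped between genotypes. The part of T cell number in the receptor values was not tested.

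Among 13 tested genes of tumour necrosis factor family costimulation and adhesion, 2 rose and 0 fell by limma, where 6.86% of all genes rose and 8.60% fell. By edgeR 3 rose and 0 fell, where 9.88% of all genes rose and 13.5% fell. At an unadjusted limma p under 0.05 there were 7 of 13, beside 32.1% of all genes, and the median log2 fold change was 0.96. By edgeR without wild type replicate 2 the number higher was smaller, as over the whole table. Without Elf4fl/fl-Villin-Cre replicate 2 it was larger, unlike over the whole table. Tnfrsf9, the receptor 4-1BB of activated T cells, had 222 and 257 normalised reads in Elf4fl/fl-Villin-Cre colon, against 36.0 and 23.2 in wild type colon (log2 fold change 3.003 ± 0.29 SE; limma adjusted p = 0.00799). Icam1, an adhesion ligand that holds T cells to antigen-presenting cells and is also made by inflamed endothelium and epithelium, had 1308 and 802 in Elf4fl/fl-Villin-Cre colon, against 416 and 353 in wild type colon (1.42; limma adjusted p = 0.0191). Cd70 and Tnfsf18 of the same list were not analysed here.

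The class I pathway, which presents peptides of the cell's own proteins and is active in nearly all nucleated cells, had calls in the downward direction. Of 14 class I genes, 0 rose and 3 fell by limma and by edgeR, where 8.60% and 13.5% of all genes fell. DESeq2 called 0 higher and 7 lower, where it called 2565 of 17184 genes lower. At an unadjusted limma p under 0.05 there were 6 of 14, beside 32.1% of all genes, and the median log2 fold change was -0.57. With any 1 library left out edgeR called fewer genes of the list lower, and fewer genes lower over the whole table as well. Calr and Pdia3, endoplasmic reticulum chaperones of the peptide loading complex, fell by 0.76 and 0.64, and the immunoproteasome subunit Psmb10 by 0.92 (limma adjusted p = 0.0235, 0.033 and 0.0332). With libraries scaled to equal totals or by quantiles the 3 calls were lost, and with equal totals the median of the class I list was -0.26, beside 0.40 over all genes in that scaling.

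Within each genotype the class II genes moved together between libraries. In 9 of the 10 genes replicate 1 was the higher library in both genotypes, with Cd80 the exception, where Elf4fl/fl-Villin-Cre replicate 1 had 0.842 times the level of replicate 2. The ratio of replicate 1 to replicate 2 in the other 9 genes ran from 1.22 in Ctss to 2.01 in Ciita in Elf4fl/fl-Villin-Cre colon, and from 1.02 in Ctss to 1.70 in H2-DMa in wild type colon. Over all genes tested, 25.5% (5627 of 22050) were higher in replicate 1 of both genotypes. The same held for 12 of 12 B cell markers, 12 of 12 T cell markers, 12 of 14 class I genes and 9 of 14 macrophage markers, and for 0 of 10 epithelial markers. What makes the libraries of a genotype differ was not tested.

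**Figure D5:**
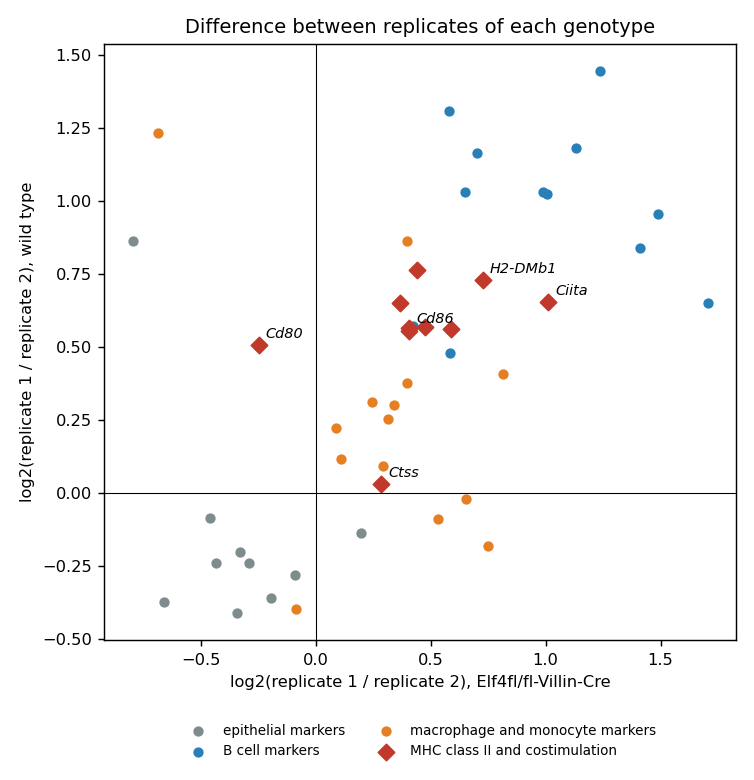
Log2 ratio of replicate 1 to replicate 2 in Elf4fl/fl-Villin-Cre libraries (horizontal axis) and in wild type libraries (vertical axis) for the 10 genes (diamonds) and for epithelial, B cell and macrophage markers (circles). All 10 genes but Cd80 lie at the upper right with the 12 B cell markers, and no epithelial marker lies there.

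The genes most like the class II chains over the 4 libraries were chosen among 6642 protein-coding genes with a mean of at least 100 and a range of at least 0.5 on the log2 scale, by the root mean square distance between centred log2 values. The pattern of H2-Aa, H2-Ab1, H2-Eb1 and Cd74 was +0.26 and -0.19 in Elf4fl/fl-Villin-Cre libraries, and +0.26 and -0.33 in wild type libraries, so the libraries of a genotype differed and the genotypes did not separate. The nearest genes were Nkg7, a granule protein of cytotoxic lymphocytes (distance 0.0352), the replication factor gene Rfc4 (0.0372), the class I gene H2-Q6 (0.0411), the Polycomb gene Phc1 (0.0413) and Apobec3, an antiviral cytidine deaminase (0.0415). H2-Q6 has near-identical relatives, so its count is uncertain. Among the chains themselves the distance to their common pattern ran from 0.0585 for H2-Ab1 to 0.157 for Cd74.

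The pattern of Cd80 and Cd86 was +0.85 and +0.77 in Elf4fl/fl-Villin-Cre libraries, and -0.55 and -1.07 in wild type libraries. The nearest genes were Cox6b2, a subunit of cytochrome c oxidase known from testis (distance 0.0312), Rgs1, a regulator of G protein signalling in lymphocytes (0.0611), Spred3, an inhibitor of Ras signalling (0.0667), Pdgfrb, a growth factor receptor of stromal cells (0.0692), and Hhipl1 (0.0734). Rgs1 had 1004 and 843 normalised reads in Elf4fl/fl-Villin-Cre colon, against 352 and 247 in wild type colon. With 4 libraries, many genes that separate the genotypes come close to this pattern, and nearness is a description of these libraries only.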

How the data were processed

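Trizol was used for RNA extraction and Illumina protocols for the libraries, per the labels' protocols. The deposited table held 1 normalised signal per gene and library, made by the authors from read counts and 1 scaling factor per library. Dividing by the value of 1 read (0.814 and 0.836 in Elf4fl/fl-Villin-Cre libraries, 1.03 and 1.05 in wild type libraries) gave whole reads for 100% of values (tolerance 0.01). Reads were placed on mm10, per the submitters' processing notes. Aligner, counter and scaling tool: not given in the sources used here. Names came from GENCODE mouse release 21, which matched 22376 of 22422 identifiers (99.8%). Level per kilobase used the merged exon length of the gene.

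The test was limma (3.58.1, R 4.3.3) with a variance trend on log2(value + 1), genotype as the only term, all 4 libraries, genes with a mean value of at least 1 (22050), and Benjamini-Hochberg adjustment over them at 0.05. On recovered reads edgeR (4.0.16, quasi-likelihood test, TMM, 17337 genes after filterByExpr) called 1713 genes higher and 2341 lower, and DESeq2 (1.42.0) was a further alternative. Scripts were tested on simulated data. The 10 genes and all lists were chosen with earlier results of these data known. In each list up to 4 called genes of smallest p were named, together with Elf4 and Ifng, and the genes of most like pattern by the distance given. Other genes named to explain a count, or for completeness, were chosen after their values had been seen. Nothing beyond the 4 libraries was used.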

Additional observations from a re-analysis of the deposited data

How the results depend on the processing

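The rise of Cd80 and of Cd86 kept its direction in all 20 alternative fits and passed the threshold in 15 of them. The exceptions were the 4 limma fits with 1 library left out and edgeR without wild type replicate 2. With 1 library left out, 0 to 2 of the 10 genes were called higher, and 0 to 1563 genes were called higher and 0 to 2191 lower in the whole table, against 1512 and 1897 with all 4 libraries. With libraries scaled to equal totals 4069 genes were higher and 1178 lower, and the median over all genes moved from 0.11 to 0.40. The numbers of the libraries are not said to pair them. Deviations of same-numbered libraries correlated at 0.316 over 11785 genes. With the replicate number as a block, edgeR called 2456 genes higher and 2977 lower (14.2% and 17.2%), and of the 10 genes 1 lower, H2-DMb1 (log2 fold change -0.47, adjusted p = 0.0336), and the same 2 higher. Limma with the block called no gene of the 10 lower (H2-DMb1 adjusted p = 0.0639). The same block took the B cell list to 10 of 12 higher (1 without it), the class I list to 10 of 14 lower (3 without it) and the other class II genes to 5 of 14 higher (2 without it), with H2-Ob (edgeR adjusted p = 0.0084, limma 0.0173) and H2-DMb2 (0.0273 and 0.0494) among them. Equal totals took the B7 list to 9 higher (6 as deposited), the tumour necrosis factor and adhesion list to 6 (2) and the promoter factors to 3 (0). Within replicate numbers 1 and 2, the log2 ratio of ligands to chains was 1.24 and 1.45, that of chains to macrophage markers -0.52 and -0.58, and that of ligands to macrophage markers 0.71 and 0.88.

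Signs turned only among genes that were not called. Scaled to equal totals, the log2 fold change was 0.27 for H2-Ab1, 0.075 for Cd74 and 0.27 for Ciita. Under quantile scaling it was 0.32 for H2-Ab1, 0.21 for Cd74 and 0.033 for Ctss. With 1 library left out, by limma or edgeR, it ran from -0.022 to 0.64 for H2-Aa, -0.35 to 0.24 for H2-Ab1, -0.11 to 0.55 for H2-Eb1, -0.53 to 0.042 for Cd74, -0.070 to 0.70 for H2-DMa and -0.63 to 0.46 for Ciita. The cause was not tested. Cd80 rested on 22 to 133 reads per library.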
